A study of Mus musculus with 32 samples.

Results

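Retinoic acid, the active form of vitamin A, is made inside keratinocytes from retinol and acts through nuclear receptors. Retinol is first oxidised to retinal and retinal is then oxidised to retinoic acid, which cellular binding proteins carry to the retinoic acid receptors or to the cytochrome P450 enzymes that break it down. The receptors bind DNA as partners of the RXR receptors at paired short motifs. In epidermis the pathway is known for its hold on keratinocyte proliferation and differentiation. The 9 genes described here stand at each step of it and were matched by symbol among the 55401 gene identifiers of the count files, 1 identifier for each gene. Rara, Rarb and Rarg encode the retinoic acid receptors alpha, beta and gamma. Crabp1 and Crabp2 encode the cellular retinoic acid binding proteins. Stra6 encodes a membrane receptor that takes up retinol from its plasma carrier, Dhrs9 a dehydrogenase that oxidises retinol to retinal, Aldh1a3 a dehydrogenase that oxidises retinal to retinoic acid, and Cyp26b1 a P450 enzyme that clears retinoic acid.

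The transcripts were counted in separated back epidermis from 32 hairless mice aged 10 to 14 weeks on a mixed SKH-1/SV129/BL6/J background, 1 library per mouse. Wild-type (WT) mice and Ppard-/- littermates (KO), which are labelled as deficient for the nuclear receptor PPARβ/δ, were taken without UV (Control, handled without the lamp on) or 24 h after a single dose of 120 mJ/cm2 (UV), a dose under the one that reddens skin. Each of the 8 combinations of genotype, sex and treatment held 4 mice, so 8 mice stood behind each genotype and treatment. Which exons of Ppard are deleted is not given in the sources used here.

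Between 22919428 and 40653581 reads per mouse fell on genes. Ppard itself kept most of its reads in the KO mice: its TMM-scaled level, in cpm (reads per 1000000 reads on genes), ran from 70.3 to 88.9 in KO control mice and from 87.3 to 104.9 in WT control mice, and from 174.6 to 238.7 in KO mice after UV and from 252.0 to 325.9 in WT mice after UV. The whole-gene count was lower in KO than in WT mice after UV in all mice (0.75-fold, edgeR quasi-likelihood adjusted p = 0.0011) so that these counts check the genotype labels only in part. Keratinocyte markers dominated the marker lists, as the tissue label says. In all, 5 suprabasal keratinocyte genes together stood at 55300 to 98100 cpm in control mice of both genotypes and at 5160 to 25700 cpm after UV, while 5 basal keratinocyte genes stood at 5200 to 16000 cpm and at 16600 to 29500 cpm. The basal sum rose, but not every basal gene did. In WT mice 3 were called higher, 1 lower and 1 was not called. In KO mice 4 were called higher and 1 was not called. Of all genes tested, 34.5% rose in WT and 37.3% in KO mice. Neutrophil and monocyte markers (6 genes, Ly6g at no more than 3 reads in 3 of the 4 combinations of genotype and treatment) stood at 11.8 to 150.0 cpm in control mice and at 623.0 to 1630 cpm after UV. This sum holds S100a8 and S100a9, and WT mice after UV are among the groups with at most 3 reads of Ly6g. Which cells gave the rise was not tested. Langerhans cell markers had a median of 705.0 cpm in WT control mice and 219.0 cpm after UV. In KO mice the medians were 492.0 and 285.0 cpm, with 622.0 and 454.0 cpm in females and 462.0 and 204.0 cpm in males. T cell markers went from a median of 56.5 to 16.4 cpm in WT and from 58.6 to 28.9 cpm in KO mice. Summed hair follicle markers went from 264.0 to 68.1 cpm in WT and from 179.0 to 78.6 cpm in KO mice. The hair follicle genes were divided: of 4 tested, 2 rose and 2 fell in WT mice, and 2 rose and 1 fell in KO mice. In libraries of whole epidermis a lower level can mean fewer cells of a type or less RNA per cell, and these cannot be told apart. The part of the marker shifts in the results that follow was not tested. One KO female taken after UV, mouse 54F, stood apart, with 1980 cpm over 6 dermal fibroblast markers against at most 92.2 cpm in any of the other mice, and results that rest on it are given with and without it. Skeletal muscle markers (4 genes) varied from 0.509 to 2370 cpm over mice of all groups.

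For the receptors, one sequence shows what retinoic acid response elements look like in this family. Rarb is known as the receptor gene that retinoic acid itself induces. Of the 9 genes, 7 had RefSeq promoter windows (GRCm38.p6, 250 bases before to 50 after a start, 14 windows in all), and 1 of these windows held a direct repeat of receptor half-sites. The search took the half-site AGGTCA, its variants beginning with the letters AGT in place of AGG (AGTTCA), with GGT (written in full GGTTCA) or with GGG (that is GGGTCA), any of them followed in the same direction by any other after 1, 2 or 5 bases, on either strand, with overlapping matches allowed. The match lies in the Rarb window, 53 to 37 bases before the RefSeq start, on the strand of the gene, within chr14:16575507-16575535 (minus strand), and is printed with the 2 half-sites and the 5 bases between them in capitals.
Rarb: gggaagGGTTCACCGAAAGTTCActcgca
GENCODE M21 (GRCm38) places these bases inside Rarb, in the first exon of the transcripts Rarb-201 and Rarb-207, upstream of their coding sequence. The transcripts Rarb-203 and Rarb-204 start further upstream and have no exon at these bases. Over all 32851 windows of the table, 0.588% held a repeat of any of the 3 spacings and 0.0974% held one with 5 bases between the half-sites.

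Reads were tested in the 15546 genes that reached 1 cpm in any mouse, in one edgeR quasi-likelihood fit of the 8 group means, with Benjamini-Hochberg adjustment over all of them. A member was called at an adjusted p below 0.05. Of the 9 members, 7 were tested. Rarb and Crabp1 did not reach 1 cpm in any mouse, and Stra6 entered only through the few mice in which it did.

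Among the receptors, Rarg was the abundant one, Rara the minor one, and Rarb was near 0. Per kilobase of exon, the mean level in WT control mice was 88.0 cpm for Rarg, 5.28 cpm for Rara and 0.014 cpm for Rarb. Rarg, which lies on chr15:102234938-102257517, ranged from 344.3 to 392.3 cpm in the 8 WT control mice (median 384.4) and from 246.4 to 303.1 cpm in the 8 WT mice after UV (median 263.1). In KO mice the range was 364.4 to 424.4 cpm (median 383.1) without UV and 222.0 to 272.6 cpm (median 257.3) after UV. In both genotypes each mouse taken after UV was below each control mouse. The fall was 0.50 ± 0.05 (SE) on the log2 scale in WT (adjusted p = 6.25e-10) and 0.61 ± 0.05 in KO mice (adjusted p = 1.44e-11).

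Rara, on chr11:98927818-98974942, fell by a larger fitted amount than Rarg. It went from 19.3 to 27.6 cpm in WT control mice (median 23.2) to 7.85 to 11.9 cpm after UV (median 9.50). In KO mice it went from 19.8 to 27.1 cpm (median 21.5) to 7.95 to 18.5 cpm (median 10.6). The groups did not overlap in either genotype, and the highest of the KO mice after UV was 54F, the mouse with the fibroblast markers. The level in WT mice after UV was 0.41-fold that in control mice (log2 difference -1.28 ± 0.09, adjusted p = 1.29e-12) and in KO mice 0.50-fold (-0.99 ± 0.09, adjusted p = 2.13e-10). Without 54F the difference in KO mice was -1.05. Dermal cells also express Rara, and their part in the level of 54F was not tested.

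Rarg therefore made up a slightly larger part of the receptor transcripts after UV, which follows from the 2 falls and was not tested apart from them. As a share of the cpm per kilobase over the 3 receptors, Rarg stood at 93.5% to 94.8% in WT control mice and at 95.8% to 97.1% in WT mice after UV. In KO mice it stood at 93.6% to 95.3% without UV and at 92.3% to 96.9% after UV. The lowest of the KO mice after UV was again 54F, and the next lowest was at 94.9%.

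Rarb gave 0 to 24 reads per mouse. The summed reads of the 8 mice were 16 in WT control, 17 in WT after UV, 17 in KO control and 41 in KO after UV, and 24 of the last came from 54F alone. Rarb was not tested, and at this depth, where 1 read is worth 0.0246 to 0.0436 cpm before TMM scaling, only a large change could have been seen. The gene with the response element shown above was thus at most 0.696 cpm in any library.

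The binding proteins had the same split, with one of the 2 abundant and the other near 0. Crabp2, which is known to deliver retinoic acid to its receptors in the nucleus, lies on chr3:87948666-87953376. Its level in WT mice was 131.4 to 179.1 cpm without UV (median 166.5) and 481.5 to 572.2 cpm after UV (median 533.0). In KO mice the level was 130.6 to 251.9 cpm without UV (median 201.5) and 396.7 to 592.8 cpm after UV (median 481.6). Every mouse taken after UV was above every control mouse. The level was 3.26-fold that of control mice in WT (log2 difference 1.71 ± 0.08, adjusted p = 1.84e-16) and 2.55-fold in KO (1.35 ± 0.08, adjusted p = 1.79e-14). Crabp1 gave 0 to 22 reads per mouse and no more than 0.802 cpm, with the highest values scattered over WT control males and KO males after UV.

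Fabp5, the fatty acid binding protein known to bring retinoic acid to PPARβ/δ, is set beside Crabp2 here and was singled out after its values were seen. It went from a median of 825.4 cpm to 2010 cpm in WT mice (log2 difference 1.11 ± 0.16, adjusted p = 4.10e-07) and from 999.4 to 1950 cpm in KO mice (0.86 ± 0.16, adjusted p = 1.80e-05). Per kilobase, the log2 ratio of Crabp2 to Fabp5 in WT mice was -1.62 to -0.38 without UV and -0.72 to -0.11 after UV. In KO mice it was -1.69 to -0.50 without UV and -1.10 to -0.14 after UV. The ranges of control and UV mice overlapped in both genotypes, and no test was made of the ratio. The lengths are those of all annotated exons joined, 1322 bases for Crabp2 and 3567 for Fabp5. The whole Fabp5 gene spans chr3:10012548-10016607. A shorter length for Fabp5 would lower every ratio by the same amount. The ratio therefore does not show which of these transcripts was the more abundant, and only control and UV mice are compared.

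Of the genes for making retinoic acid, Aldh1a3 moved most among the members. It lies on chr7:66390890-66427517. In WT control mice its level varied widely, from 1.31 to 14.3 cpm (median 4.42), and after UV it was 46.5 to 95.5 cpm (median 64.0). In KO mice it was 0.683 to 12.6 cpm without UV (median 5.48) and 48.0 to 100.7 cpm after UV (median 64.9). The lowest mouse after UV was still more than 3 times the highest control mouse. The fitted rise was 13.4-fold in WT (log2 difference 3.74 ± 0.47, adjusted p = 5.42e-08) and 14.0-fold in KO mice (3.80 ± 0.47, adjusted p = 4.32e-08), with an SE several times that of Crabp2.

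Dhrs9, on chr2:69380445-69404533, had a smaller fitted rise and its groups overlapped. It was 26.3 to 62.4 cpm in WT control mice (median 47.4) and 52.4 to 118.0 cpm after UV (median 67.5). In KO mice it was 42.7 to 74.7 cpm without UV (median 50.2) and 46.6 to 114.3 cpm after UV (median 67.2). The rise was 1.55-fold in WT (log2 difference 0.64 ± 0.16, adjusted p = 0.00081) and 1.31-fold in KO mice (0.39 ± 0.16, adjusted p = 0.029). The call in KO mice rested on single libraries: it was lost, at adjusted p of 0.051 to 0.089, when 59M, 61M, 52F or 74F of the UV mice, or 44F, 52M or 67M of the control mice, was left out.

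Cyp26b1, on chr6:84571414-84593908, is the degrading enzyme and one of the genes that retinoic acid is known to induce. In WT mice it was 20.4 to 51.1 cpm without UV (median 31.8) and 35.8 to 68.8 cpm after UV (median 60.3). In KO mice it was 18.7 to 72.3 cpm without UV (median 25.9) and 12.4 to 67.3 cpm after UV (median 37.96). Among the KO mice, the highest control mouse (52M, 72.3 cpm) and the lowest UV mouse (59M, 12.4 cpm) were both males. The rise was called in WT mice (1.76-fold, log2 difference 0.81 ± 0.25, adjusted p = 0.0044) and not in KO mice (0.41 ± 0.24, adjusted p = 0.14). Without 52M the difference in KO mice was 0.62 (adjusted p = 0.017), and without 59M it was 0.53 (adjusted p = 0.038). Stra6 had 2 to 75 reads per mouse and at most 2.98 cpm, and its log2 differences of 0.34 ± 0.55 in WT and 0.89 ± 0.58 in KO mice were not called.

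In total, 6 of the 7 tested members were called after UV in WT mice, 4 higher and 2 lower, against 71% of all genes tested in the same comparison. In KO mice 5 of 7 were called, 3 higher and 2 lower, against 70.8% of all genes. With a fold over 1.5 required as well, 5 members were called in WT mice, against 48.0% of all genes, and 4 in KO mice, against 47.6%. Most of the transcriptome was thus called as well, and the members differ from one another in direction and size. Control and UV mice did not overlap for 4 of the 7 members in each genotype (Rara, Rarg, Crabp2 and Aldh1a3), against 43.4% of all genes in WT and 35.1% in KO mice. The median log2 difference over the 7 members was 0.64 in WT and 0.41 in KO mice, and over all genes it was -0.01 and 0.09.

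**Figure D1:**
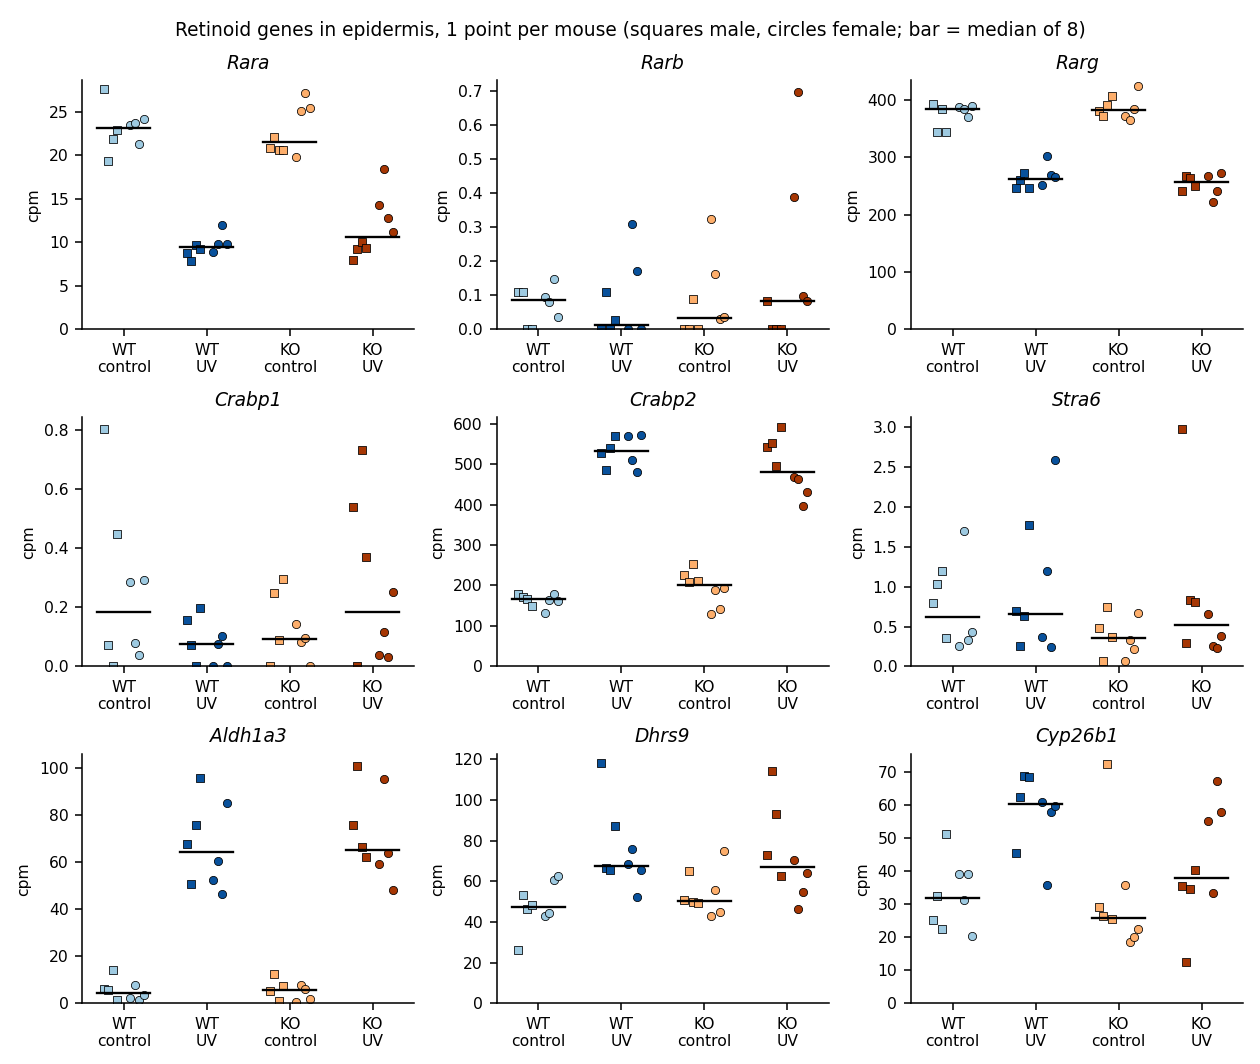
Level of the 9 retinoid genes in cpm (vertical axes, linear, from 0, a separate scale in each panel) in each of the 32 mice, by genotype and treatment, with squares for males, circles for females and bars at the median of 8 mice. Crabp2 and Aldh1a3 stand higher and Rara and Rarg lower in every mouse taken after UV, Dhrs9 and Cyp26b1 overlap, and Rarb and Crabp1 stay under 1 cpm.

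The comparison of genotypes addressed whether loss of PPARβ/δ alters these genes. Without UV none of the 7 members was called between KO and WT mice, against 0.206% of all genes. By edgeR 1 member, Crabp2, was under an unadjusted p of 0.05 (log2 difference 0.24 ± 0.08, adjusted p = 0.32), and limma-trend and DESeq2 called 0. After UV none was called either, against 3.31% of all genes. There 1 member, Rara, was under an unadjusted p of 0.05 (0.26 ± 0.09, adjusted p = 0.10), the other tools again called 0, and without 54F the difference in Rara was 0.17 (adjusted p = 0.27). Cyp26b1 differed by -0.50 ± 0.24 (adjusted p = 0.25) and Aldh1a3 by 0.10 ± 0.41 (adjusted p = 0.93). The SE of the difference after UV was 0.05 for Rarg, 0.08 for Crabp2 and 0.09 for Rara, against 0.41 for Aldh1a3 and 0.56 for Stra6, where only larger differences could have been seen.

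The difference between genotypes in the response to UV was tested directly as an interaction. None of the 7 members was called, against 0.765% of all genes. At an unadjusted p of 0.05 there were 2 members, Crabp2 and Rara, in both of which the response was the smaller one in KO mice. For Crabp2 the interaction was -0.35 ± 0.11 (adjusted p = 0.099), limma-trend called 0 members, and DESeq2 called this 1 (-0.39, adjusted p = 0.023). For Rara it was 0.29 ± 0.13 (adjusted p = 0.22) and 0.19 without 54F (adjusted p = 0.39). The genotype comparisons share their mice with the comparisons of UV, so they are not separate evidence.

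Taken by sex, 4 members were called in every comparison of UV and control mice, and Dhrs9 and Cyp26b1 in some. Of the 7 members, 6 were called after UV in WT males (60.9% of all genes), 4 in WT females (61.3%), 5 in KO males (61.7%) and 5 in KO females (60.7%). Rara, Rarg, Crabp2 and Aldh1a3 were called in all 4 comparisons, and in each of them the 4 UV mice did not overlap the 4 control mice. Of all genes tested, 54.9% did not overlap in WT males, 57.8% in WT females, 53.5% in KO males and 52.5% in KO females, 44.8% were called in all 4 comparisons, and 35.0% were called without overlap in all 4. Dhrs9 was called in WT males (1.93-fold, adjusted p = 0.00064) and KO males (1.60-fold, adjusted p = 0.010) and not in WT females (1.25-fold, adjusted p = 0.22) or KO females (1.08-fold, adjusted p = 0.70). Without the KO male 59M the call in KO males was lost (adjusted p = 0.054).

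Cyp26b1 followed another order. It was called in WT males (1.87-fold, adjusted p = 0.026) and KO females (2.20-fold, adjusted p = 0.0065), not in WT females (1.65-fold, adjusted p = 0.072, or 0.037 to 0.0496 without 57F, 52M, 54F or 59M), and in KO males the fitted value was 0.80-fold (adjusted p = 0.44). In KO females the control values were 35.7, 18.7, 20.2 and 22.5 cpm and the UV values 55.1, 33.4, 67.3 and 57.97 cpm, where 33.4 belongs to 54F. In KO males the control values were 29.3, 26.3, 72.3 and 25.5 cpm and the UV values 35.5, 12.4, 34.4 and 40.4 cpm, so that one control mouse and one UV mouse carry the negative sign. Without the control mouse 52M the KO male difference was 0.19 on the log2 scale in place of -0.32. In WT males the call was lost without 43M or 56M of the control mice or 57M or 71M of the UV mice (adjusted p of 0.052 to 0.087).

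Whether the response differed between the sexes was tested as a sex-by-UV interaction in each genotype. No member was called in WT mice, where 0.0% of all genes were, and by edgeR 0 members were under an unadjusted p of 0.05. None was called in KO mice, where again 0.0% of all genes were, and limma-trend and DESeq2 called 0 members in either genotype. In KO mice 2 members were under an unadjusted p of 0.05: Cyp26b1 (1.46 ± 0.49 higher response in females, adjusted p = 0.33) and Rara (0.42 ± 0.18, adjusted p = 0.45). The Cyp26b1 interaction holds the KO control male 52M at 72.3 cpm and the KO UV male 59M at 12.4 cpm, and so rests in part on single mice. Without 54F the log2 interaction of Rara was smaller, at 0.25. For Dhrs9 the interaction was -0.63 ± 0.32 in WT (adjusted p = 1.0) and -0.57 ± 0.32 in KO mice (adjusted p = 0.61). The difference between males and females in Dhrs9 calls was therefore not shown.

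Crabp2 and, after UV, Rara lay apart by sex within the KO mice, given here as values with no test and chosen after they were seen. Females and males did not overlap for 1 of the 7 members in KO control mice and for 2 in KO mice after UV, against 14.6% and 11.7% of all genes. After UV, KO males had 495.4 to 592.8 cpm of Crabp2 and KO females 396.7 to 467.9 cpm. Without UV the KO males had 208.9 to 251.9 cpm and the KO females 130.6 to 194.2 cpm. In WT mice no member separated by sex in either treatment, against 4.6% of all genes without UV and 3.06% after it. For Rara after UV, KO females had 11.1 to 18.5 cpm and KO males 7.95 to 10.0 cpm. Without UV, Rara overlapped between KO females, at 19.8 to 27.1 cpm, and KO males, at 20.6 to 22.1 cpm.

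**Figure D2:**
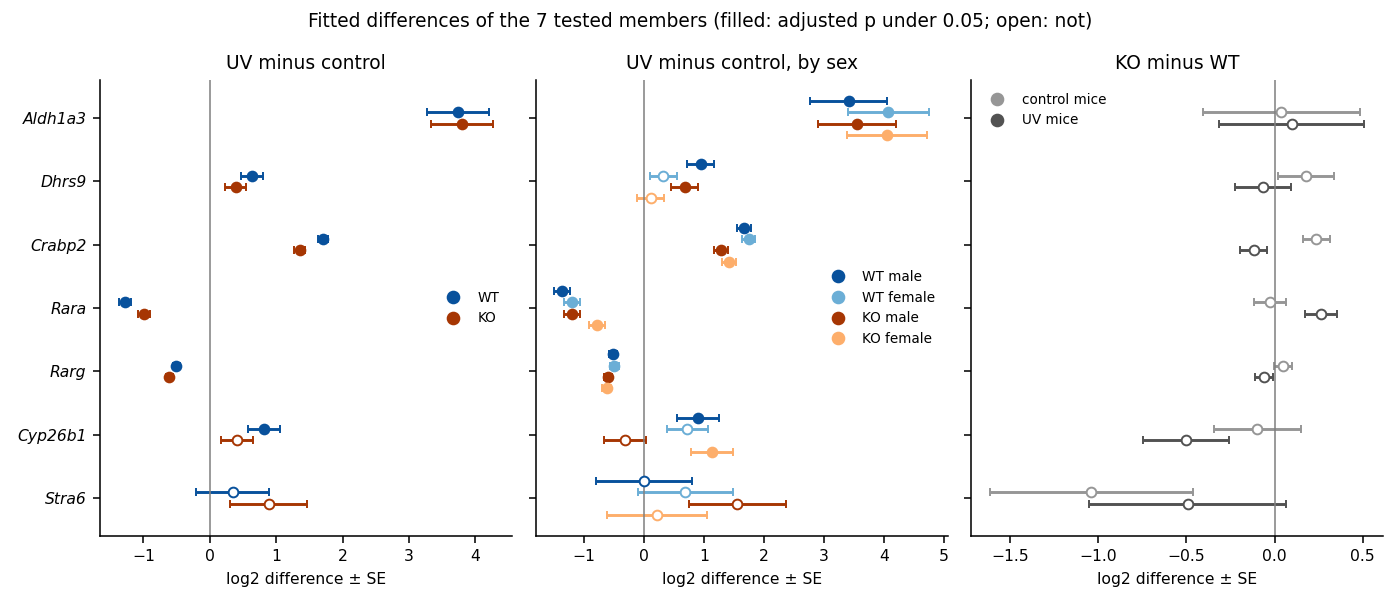
Fitted log2 differences (horizontal axes, bars of 1 SE) of the 7 tested members for UV against control in each genotype (left), the same by sex (middle) and KO against WT within each treatment (right), with filled points for an adjusted p below 0.05. Rara, Rarg, Crabp2 and Aldh1a3 are filled in every UV comparison, and no point is filled between genotypes.

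The rest of the retinoid pathway was described from a list of 44 genes that includes the 9 members. Of its 35 other genes 31 were tested (Adh4, Cyp26a1, Cyp26c1 and Rbp4 were not). In WT mice 12 of the 31 rose, 11 fell and 8 were not called, and in KO mice 11 rose, 10 fell and 10 were not called. The genes that rose include Stra6l, which passed the filter through UV mice alone. Of all genes tested, 34.5% rose and 36.5% fell in WT mice, and 37.3% rose and 33.5% fell in KO mice, so that the list had shares near those of the transcriptome. Their median log2 difference was -0.05 in WT and 0.18 in KO mice. No direction therefore belonged to the list as a whole, while the called genes of some roles all went one way.

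The shares of all genes just given are the background to the counts by role, which are small and are descriptions. With Rara and Rarg, 4 of the 5 tested receptors of the list fell in WT and 3 of 5 in KO mice, and none rose. All 4 tested binding proteins rose in both genotypes, Crabp2 and Fabp5 among them. Rbp2, a retinol binding protein best known from the gut, rose 2.47-fold in WT and 1.802-fold in KO mice. Rbp7 rose 2.92-fold in WT mice (adjusted p = 0.0062) and 2.29-fold in KO mice (adjusted p = 0.032), at no more than 2.69 cpm, and its call in KO mice was lost when 44M, 52M, 67M or 69F of the control mice or 59M, 72M or 74F of the UV mice was left out, at adjusted p of 0.055 to 0.12.

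Called genes of retinol uptake and storage were also higher. Scarb1, the scavenger receptor for lipoproteins and carotenoids, rose 2.09-fold in WT (adjusted p = 0.0003) and 3.31-fold in KO mice, and Stra6l, a relative of Stra6, was at 0 to 0.111 cpm in WT control mice and at 0 to 1.14 cpm after UV. Stra6l reached the 1 cpm of the filter in UV mice alone, so that its call is not read as a result. Lrat, the main enzyme that stores retinol as an ester, rose 3.33-fold in WT (median 10.96 to 40.4 cpm, adjusted p = 3.86e-05) and 2.58-fold in KO mice. Dgat1, an acyltransferase that also esterifies retinol in skin, rose 3.93-fold in WT (adjusted p = 2.35e-12) and 5.37-fold in KO mice, with no overlap between control and UV mice. Of the 4 genes of ester storage and release, the lipase gene Lipe among them, 3 rose in WT and 4 in KO mice, against 34.5% and 37.3% of all genes tested. Sebaceous gland cells also use Dgat1 and Awat2. Of 5 sebaceous gland markers 2 rose and 1 fell in WT mice and 3 rose in KO mice. Their summed level was 454.0 to 942.0 cpm in WT control mice and 101.0 to 661.0 cpm after UV, and in KO mice 427.0 to 1130 cpm and 226.0 to 2600 cpm. The 2600 cpm belongs to the KO female 66F, against a median of 654.0 cpm over the KO mice after UV. The same mouse had the highest Awat2, Dgat1 and Scarb1 of those mice, at 34.6, 141.5 and 18.2 cpm. The part of the sebaceous gland markers in the ester storage genes was not tested.

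The 2 carotenoid cleavage enzymes fell. Bco1, which splits beta-carotene to retinal, fell by 2.89 ± 0.31 on the log2 scale in WT mice (median 4.03 to 0.565 cpm) and by 3.13 ± 0.32 in KO mice. Bco2 fell by 1.72 ± 0.27 in WT and by 1.05 ± 0.26 in KO mice.

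The enzymes that interconvert retinol and retinal, the class of Dhrs9, were divided, with fewer rises than falls in both genotypes. Of 16 tested, 5 rose, 7 fell and 4 were not called in WT mice, and 3 rose, 7 fell and 6 were not called in KO mice. Of all genes tested, 34.5% rose and 36.5% fell in WT mice, and 37.3% rose and 33.5% fell in KO mice. Dhrs3, which reduces retinal back to retinol and so opposes Dhrs9, fell most in WT mice: from 52.3 to 63.9 cpm in WT control mice to 6.44 to 12.8 cpm after UV (log2 difference -2.54 ± 0.15, adjusted p = 2.24e-14), and by 1.98 ± 0.15 in KO mice. Adh1, an alcohol dehydrogenase that oxidises retinol, fell by 2.07 ± 0.25 in WT and by 2.33 ± 0.25 in KO mice. Rdh16, a retinol dehydrogenase, rose 3.72-fold in WT (adjusted p = 2.21e-08) and 2.57-fold in KO mice. Aldh1a3 was the one of 3 retinal oxidising enzymes that was called in either genotype.

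Of the 38 tested genes of the list, Dhrs3 was the one called between genotypes after UV, where 3.31% of all genes were called, so that 1 call is near the background. It was 6.44 to 12.8 cpm in WT and 11.6 to 30.1 cpm in KO mice after UV (log2 difference 0.61 ± 0.14, adjusted p = 0.023), and the groups overlapped. The call was lost without 38M or 51F of the WT mice or 54F or 58M of the KO mice (adjusted p of 0.057 to 0.061), and without 54F the difference was 0.43. Its interaction of genotype and UV was not called (0.56 ± 0.20, adjusted p = 0.13).

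**Figure D3:**
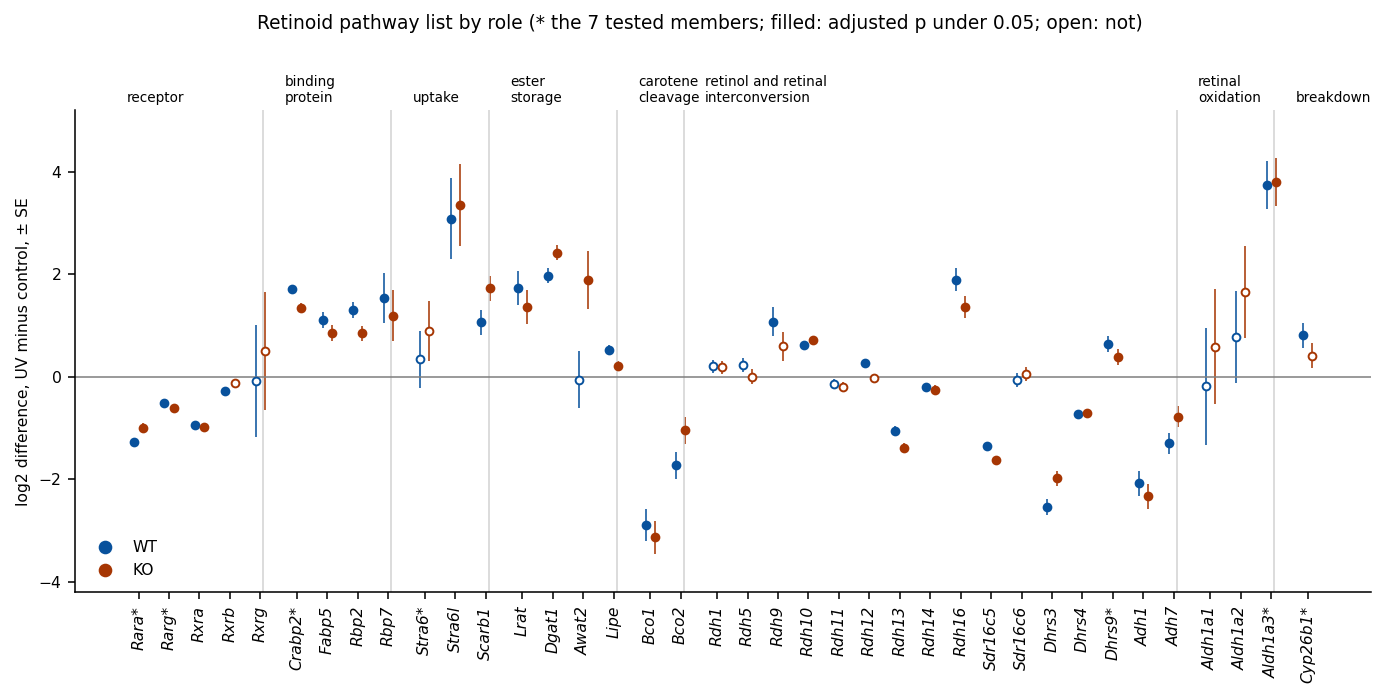
Log2 difference between UV and control mice (vertical axis, bars of 1 SE) for each of the 38 tested genes of the retinoid pathway list, grouped by role, in WT (blue) and KO mice (brown), with filled points for an adjusted p below 0.05 and stars at members. Binding proteins lie above 0 and carotenoid cleavage enzymes below it in both genotypes, and the retinol and retinal enzymes lie on both sides.

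Genes that retinoic acid is known to induce did not move one way either. The list of 12 includes Rarb, Crabp2, Cyp26b1 and Stra6. Of 10 tested genes, 6 rose, 2 fell and 2 were not called in WT mice, and 5 rose, 1 fell and 4 were not called in KO mice. Of all genes tested, 34.5% rose and 36.5% fell in WT mice, and 37.3% rose and 33.5% fell in KO mice. The called share of the list was thus near that of all genes. Its rises outnumbered its falls, and this was not tested. Hbegf, a growth factor of the EGF family, rose 18.9-fold in WT (adjusted p = 7.48e-18) and 13.4-fold in KO mice. Tgm2, a transglutaminase that crosslinks proteins, rose from a median of 3.24 to 14.6 cpm in WT mice (3.96-fold, adjusted p = 0.0024) and from 0.853 to 21.4 cpm in KO mice (7.55-fold), and control and UV mice overlapped in both genotypes. Dhrs3 fell, as given above. Of 6 corepressors and coactivators of the receptors, 5 fell and 1 rose in both genotypes, where 36.5% of all genes fell in WT and 33.5% in KO mice. Ncoa3 and Ncoa2, coactivators of nuclear receptors, fell by 1.15 ± 0.09 and 1.03 ± 0.12 on the log2 scale in WT mice and by 1.22 ± 0.09 and 1.195 ± 0.12 in KO mice.

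Each tested member was paired with the gene whose log2 cpm followed it most closely over the 32 mice, as a description. These correlations hold the change with UV that the 2 genes share, and the mice share libraries of different depth and makeup. For Aldh1a3 the gene was Krt6a, a keratin known from wounded and hyperproliferative epidermis, with r = 0.98. After the 8 group means were subtracted r was 0.93 over the 16 control mice and 0.20 over the 16 UV mice. Krt6a was 83.1 to 2660 cpm in control mice and 18600 to 27400 cpm after UV. The control mice with the most Aldh1a3 were thus among those with the most Krt6a.

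For Dhrs9 the gene was Dsg1b, a desmoglein of the upper epidermis (r = 0.86, and after group means 0.70 in control and 0.93 in UV mice). For Crabp2 it was Metap1 (r = 0.98, then 0.62 and 0.37), for Rarg Extl1 (0.97, then 0.47 and 0.47) and for Rara Tbc1d16 (0.97, then 0.22 and 0.71). For Cyp26b1 it was 1700001L05Rik (0.72, then 0.66 and 0.78), at no more than 3.15 cpm, and for Stra6 it was S100a3 (0.83, then 0.86 and 0.88). Each gene was chosen over the same 32 mice in which its likeness is given, and no difference between these values was tested.

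**Figure D4:**
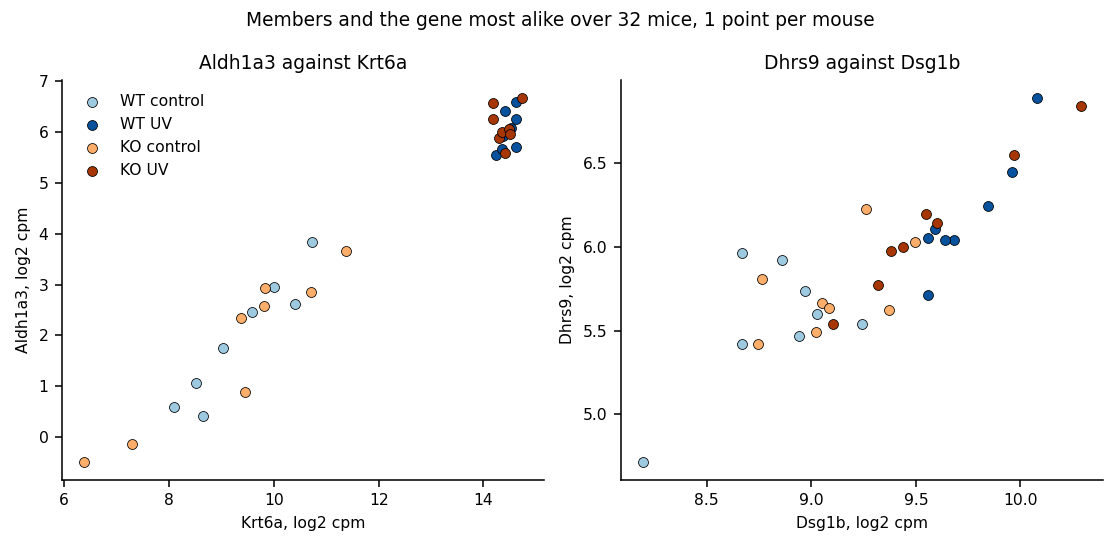
Log2 cpm of Aldh1a3 against Krt6a (left) and of Dhrs9 against Dsg1b (right), 1 point per mouse, coloured by genotype and treatment. Control mice spread along a line for Aldh1a3 and Krt6a and the UV mice form a separate cluster above them, whereas Dhrs9 and Dsg1b rise together among the UV mice.

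Per kilobase of exon, Crabp2, Rarg and Dhrs9 had the highest means, in that order, in each combination of genotype and treatment. The order of the members below them changed. In WT control mice the mean cpm per kilobase was 123.2 for Crabp2, 88.0 for Rarg, 11.2 for Dhrs9, 6.09 for Cyp26b1, 5.28 for Rara and 1.13 for Aldh1a3, and 0.314 for Crabp1, 0.131 for Stra6 and 0.014 for Rarb. In WT mice after UV it was 402.2 for Crabp2, 62.1 for Rarg, 17.5 for Dhrs9, 14.4 for Aldh1a3, 10.7 for Cyp26b1 and 2.18 for Rara, with Stra6, Crabp1 and Rarb under 0.2. Aldh1a3 passed Rara and Cyp26b1 after UV, and Dhrs9 and Aldh1a3 then lay within each other's spread. In KO mice after UV the values were 372.8 for Crabp2, 59.5 for Rarg, 16.9 for Dhrs9, 15.4 for Aldh1a3, 7.86 for Cyp26b1 and 2.67 for Rara.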

How the data were processed

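RNA was sequenced from the epidermis of 32 mice, and groups were taken from the labels. The deposited values are whole-number counts of reads per gene, without normalization. The authors trimmed reads with cutadapt 1.8, aligned them with STAR 2.5.3a and counted them with HTSeq 0.9.1. The submitters' notes name mouse build GRCm38. Symbols, positions and exon lengths came from GENCODE M21, and promoter windows from RefSeq. Exon lengths join all annotated exons of a gene, so levels per kilobase depend on the annotation. Counts were scaled by TMM and tested in edgeR 4.0.16 (R 4.3.3), and limma-trend 3.58.1 and DESeq2 1.42.0 were alternatives. Calling was tested on simulated data in which few genes changed, equally many up and down. In these data 71.0% of genes were called after UV in WT mice. The simulation therefore does not show how scaling and calling act under so wide a change. Levels are TMM-scaled cpm, reads per 1000000 reads on genes. Medians are over mice and ± is the SE of a fit. Reads carry no molecular identifiers, so depth limits cover counting error only. The mice are separate animals.

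The members and gene lists were chosen with earlier results of these data known. Other pathway genes were named at an adjusted p below 0.05 in WT mice after UV with a log2 difference of at least 1 and a mean of at least 10 counts, up to 3 per role. A gene of the pathway lists is not reported here, and the counts of these lists leave it out.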

Additional observations from a re-analysis of the deposited data

Results flagged for a closer look

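In 6 of the 72 sets of 4 mice (9 members in 8 groups) one mouse lay far from the other 3, which chance gives in about 1 set in 20 for continuous values. The 2 sets of Rarb hold 2 reads in 1 mouse and 0 in the others, to which that rate does not apply, and without Rarb there were 4 of 64 sets. Cyp26b1 stood out in 2 of them: the KO male control mouse 52M was at 72.3 cpm against 25.5 to 29.3 cpm in the others, and the WT female UV mouse 57F was at 35.8 cpm against 57.9 to 60.9 cpm. Dhrs9 was at 65.3 cpm in the KO male control mouse 44M against 49.2 to 50.7 cpm. Stra6 was at 1.71 cpm, or 43 reads, in the WT female control mouse 63F against 0.254 to 0.438 cpm. Rarb was at 0.0879 cpm in the KO male control mouse 52M and at 0.0829 cpm in the KO male UV mouse 58M, 2 reads in each, with the others at 0.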

How the results depend on the processing

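After UV, the adjusted p of Rara, Rarg, Crabp2 and Aldh1a3 in both genotypes, and of Dhrs9 and Cyp26b1 in WT mice, stayed below 0.05 under every scaling, filter, tool and left-out mouse tried. The scalings (TMM, RLE and that of DESeq2) all take a typical gene as unchanged. They therefore cannot show whether small differences, such as that of Rarg, depend on this. Without a filter the calls in KO mice of Dhrs9 (0.36, adjusted p = 0.066) and Rbp7 (1.16, adjusted p = 0.059) were lost, the latter also in KO mice fitted alone (1.19, adjusted p = 0.058), and Cyp26b1 in WT females was called by DESeq2 (0.75, adjusted p = 0.043) and in WT mice fitted alone (0.72, adjusted p = 0.027). The cause was not tested. DESeq2 called 1 member in the genotype-by-UV interaction. Over all genes it called 78 between genotypes without UV, 1116 after UV and 841 in the interaction, against 32, 514 and 119 by edgeR, and 3 and 35 in the sex-by-UV interactions of WT and KO mice, against 0. Limma-trend called 260 genes between genotypes after UV, edgeR without a filter 263, with 55 in the interaction, and the fit of KO mice alone 1 for sex by UV.

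Leaving out 1 mouse at a time moved these counts to 20 to 45 without UV, 133 (without 51F) to 983 (without 59M) after UV, 56 (without 69M) to 346 (without 59M) in the interaction and 0 to 2 for sex by UV in KO mice. No paired analysis was possible because the mouse tags of different groups belong to different mice.

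The differences that changed sign were not called. Stra6 in WT males (0.00 in the report's fit) was 0.022 with RLE scaling, 0.0188 with DESeq2, 0.0181 with filterByExpr, 0.0308 without a filter and 0.0214 in WT mice alone. Rarg for sex by UV in WT mice (0.02) was -0.0022 with filterByExpr, -0.0084 without a filter and -0.0023 in WT mice alone, and Aldh1a3 between genotypes without UV (0.04) was -0.14 with limma-trend. Leaving out 1 mouse at a time gave ranges that cross 0 as follows. After UV, Stra6 ranged from -0.0936 to 0.83 in WT mice, from -0.19 to 1.67 in WT females, from -0.67 to 0.30 in WT males and from -0.17 to 0.86 in KO females, Cyp26b1 from -0.48 to 0.19 in KO males and Dhrs9 from -0.0241 to 0.30 in KO females. Between genotypes without UV, Aldh1a3 ranged from -0.23 to 0.37, Cyp26b1 from -0.35 to 0.0519 and Rara from -0.0615 to 0.0262. Between genotypes after UV, Aldh1a3 ranged from -0.0267 to 0.20 and Dhrs9 from -0.16 to 0.0278, and the interaction of Aldh1a3 from -0.27 to 0.33. For sex by UV in WT mice, Rarg ranged from -0.0231 to 0.0589, Crabp2 from -0.0042 to 0.13, Aldh1a3 from -0.0007 to 1.31 and Stra6 from -0.18 to 1.68. For sex by UV in KO mice, Rarg ranged from -0.18 to 0.0243, Crabp2 from -0.0318 to 0.22 and Aldh1a3 from -0.0406 to 0.98.

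Low counts kept Rarb and Crabp1 out of the test, and the SEs of Stra6, Aldh1a3 and Cyp26b1 limit the size of difference that was called.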
